A study of Mus musculus with 4 samples.

Results

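The spots with the most MHC class II RNA were examined in a mouse heart section taken 14 days after neonatal cryoinjury (d14). In the Visium assay a tissue section lies on an array of barcoded spots, and each spot is a small region that can hold several cells of different types. Of the 3067 spots listed for the series, 1178 were from the d14 section, and 1175 of these held at least 500 UMIs (unique molecular identifiers, each standing for a captured RNA molecule). The 10% with the highest share of UMIs from the matrix genes Col1a1, Col1a2, Col3a1, Postn, Fn1 and Tnc, 118 spots, were set aside as matrix-rich spots. Of the 1057 remaining spots, the 10% with the highest share of UMIs from Cd74, H2-Aa, H2-Ab1 and H2-Eb1 were taken as the class II spots, which gave 106 class II spots and 951 other remaining spots. The class II spots were thus chosen by the measured UMIs of these 4 genes, which were left out of the comparisons across all genes. Their own values below describe the choice and test nothing.

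All 4 sections of the series were cut at 10 µm from fresh frozen hearts of ICR mice, an outbred strain. A cooled probe was held to the apex of the left ventricle for 5 seconds at postnatal day 1, and the d14 heart was thus from an animal of postnatal day 15. The other sections were from 1 day (d1), 4 days (d4) and 7 days (d7) after the same injury. Each time point had 1 section of 1 heart, and none is labelled as coming from an uninjured heart, so no comparison here has biological replicates, no p-value is given, and all intervals cover counting error only.

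MHC class II molecules are pairs of an alpha and a beta chain on the surface of antigen-presenting cells such as macrophages, dendritic cells and B cells, where they show peptides to CD4+ T cells. Cd74, the invariant chain, holds the peptide groove closed until cathepsins degrade it in the endosome, and H2-DM then helps load the peptide. In most tissues transcription of these genes depends on the coactivator Ciita, which other cells, endothelium included, can be made to express by interferon gamma. In the heart, resident macrophages fall into subsets with much or little class II, and this difference emerges after birth.

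The mouse class II genes lie together on chromosome 17. On GRCm38, H2-Ab1 runs from 34257689 to 34269419 on the plus strand, H2-Aa from 34282744 to 34287823 on the minus strand and H2-Eb1 from 34305867 to 34316674 on the plus strand. Class II promoters are known for a conserved X box, bound by the RFX complex, and a Y box, bound by NF-Y, which together recruit Ciita. The 150 bases before the RefSeq start of H2-Aa and H2-Eb1 are shown because both carry the Y box letters while their UMIs differed widely in the section. The sequences are from RefSeq (GRCm38.p6), 5′ to 3′ on the gene's strand, with TGATTGG (Y box letters) and ACTGATG (part of the X box) in capitals. These letters were settled after the sequences had been read. On either strand TGATTGG was found in 5.71% and ACTGATG in 1.57% of 32851 promoter windows of this length.
H2-Aa, chr17:34287824-34287973, minus strand: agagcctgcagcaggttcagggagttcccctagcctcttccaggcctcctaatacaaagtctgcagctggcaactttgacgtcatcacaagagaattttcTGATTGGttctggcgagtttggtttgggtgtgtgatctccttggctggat
H2-Eb1, chr17:34305717-34305866, plus strand: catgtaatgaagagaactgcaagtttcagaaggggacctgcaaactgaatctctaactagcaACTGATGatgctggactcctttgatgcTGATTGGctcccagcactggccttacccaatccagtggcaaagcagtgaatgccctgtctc
H2-Eb1 held 1 match of each motif, and H2-Aa held 1 match of the Y box letters and 0 of ACTGATG. As ACTGATG is only part of the X box and was settled after reading, the 0 does not show that H2-Aa lacks one.

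Class II RNA was sparse, and the choice of spots rested on few molecules. The class II spots together held 264 class II UMIs, 44.2% of the 597 in the section. The other remaining spots held 191 (32.0%), and the 118 matrix-rich spots held 142 (23.8%). Per 1000000 UMIs of all genes this was 617.6 in class II spots, 49.7 in the other remaining spots and 302.8 in matrix-rich spots. A class II spot held a median of 2 class II UMIs, with a range of 1 to 12. In 26 class II spots a single UMI was enough, 43 spots held 2, and 37 held 3 or more. Among the other remaining spots 773 held 0, 165 held 1 and 13 held 2. The last spot inside the threshold had 1 class II UMI among 2772 in all (360.75 per 1000000), and the first outside had 2 among 5545 (360.685 per 1000000). Which side of the threshold such a spot fell on was thus set by its depth. Median depth was 3735 UMIs in class II spots, 3755 in the other remaining spots and 3864.5 in matrix-rich spots, with medians of 1641, 1594 and 1869.5 detected genes. Over the remaining spots the class II count per spot had a mean of 0.430 and a variance of 0.955, a variance above the mean.

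**Figure D1:**
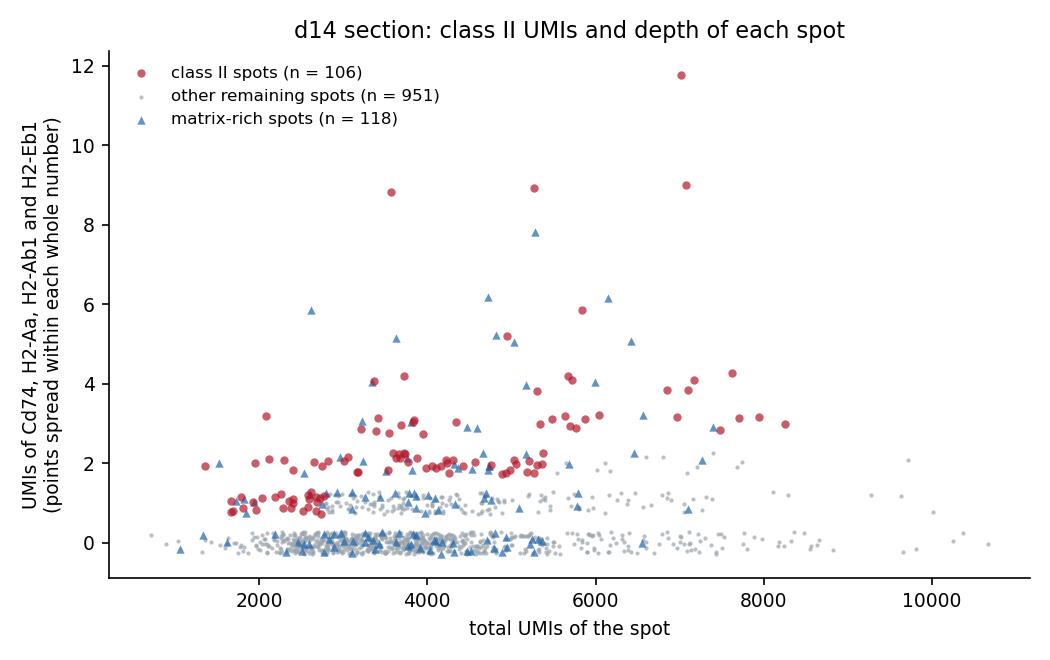
Each point is a spot of the d14 section, with its total UMIs on the x axis and its UMIs of Cd74, H2-Aa, H2-Ab1 and H2-Eb1 on the y axis (spread within each whole number). Class II spots are red, other remaining spots grey and matrix-rich spots blue triangles. 37 of the 106 class II spots held 3 or more class II UMIs, and 4 stand at 9 or above.

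The 4 genes of the label were read 1 by 1, as a description of the choice. H2-Aa, the alpha chain of the I-A molecule, had 104 UMIs in class II spots (268.8 UMIs per 1000000, written CPM below) and 80 in the other remaining spots (22.99 CPM). H2-Ab1, its beta chain, had 89 UMIs in class II spots (230.0 CPM) and 47 in the other remaining spots (13.5 CPM). Cd74, which lies apart from the H2 genes on chromosome 18 (60803848 to 60812652, plus strand), had 63 UMIs in class II spots (162.8 CPM) and 59 in the other remaining spots (17.0 CPM). H2-Eb1, the beta chain of the I-E molecule, had only 8 UMIs in class II spots (20.7 CPM) and 5 in the other remaining spots (1.44 CPM). So the H2-A pair and Cd74 made up nearly all of the signal.

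The 4 genes overlapped only in part over the class II spots. Cd74 was detected in 47 class II spots, H2-Aa in 61, H2-Ab1 in 60 and H2-Eb1 in 6. Cd74 occurred with an H2 gene in 31 class II spots, alone in 16, and was missing in 59 that held H2 genes only. H2-Aa and H2-Ab1 occurred together in 33. To read each gene in spots that it had not chosen, the same number of spots was taken by part of the genes. In the 106 spots ranked highest by Cd74 alone, H2-Aa was at 70.4 CPM, against 44.7 CPM in the rest of the remaining spots, a ratio of 1.58 (95% interval 1.04 to 2.33). H2-Ab1 in the same spots had a ratio of 1.84 (1.15 to 2.84). In the 106 spots ranked by the 3 H2 genes, Cd74 had a ratio of 1.39 (0.751 to 2.39), which does not exclude 1. In those ranked by H2-Ab1 alone it had a ratio of 2.30 (1.44 to 3.57), and in those ranked by H2-Aa alone of 1.21 (0.639 to 2.12). H2-Ab1 had a ratio of 4.31 (2.93 to 6.25) in spots ranked by H2-Aa alone. In the d7 section, in the 70 spots ranked by the 3 H2 genes, Cd74 had a ratio of 34.6 (12.9 to 116).

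Summed over whole sections, class II RNA was more abundant at d14 than at the earlier times. Cd74 was at 0.620 CPM in the d1 section, 4.62 at d4, 6.29 at d7 and 37.9 at d14, each over all spots of the section. The d14 interval (32.3 to 44.2 CPM) lay above that of each earlier section, and the intervals at d4 and d7 overlapped. H2-Aa was at 0.930, 5.99, 19.6 and 56.2 CPM and H2-Ab1 at 1.86, 7.53, 16.9 and 41.1 CPM in the same order. H2-Eb1 went another way, with 2.48, 6.50, 3.41 and 3.49 CPM. Fewer cells of a type and less RNA per cell cannot be told apart in such sums.

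In the main comparison, pooled UMIs of the class II spots were set against those of the other remaining spots. A gene was called higher or lower when it had at least 20 UMIs over both groups, a ratio of CPM of at least 2 or at most 0.5, and an interval that excluded 1. Of 10182 genes with enough UMIs, 131 were higher (1.29%) and 103 lower (1.01%). Over these genes the log2 ratio had a median of -0.00098, and 48.6% had a ratio above 1. With TMM scaling, which moved that median to -0.07, 96 genes were higher and 142 lower, so the majority turned round. Standardised over 5 depth classes, 212 were higher and 75 lower. Many of the calls rest on few molecules, as a UMI is worth 2.58 CPM in class II spots and 0.287 CPM in the others.

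Genes of myeloid cells were modestly more abundant in class II spots. A list of 20 pan-myeloid genes summed to 876 CPM in class II spots and 621 CPM in the other remaining spots, a ratio of 1.41 (1.25 to 1.58). Of the 18 with enough UMIs, 2 were higher and 0 lower against the 1.29% and 1.01% of all genes, 16 had a ratio above 1, and the median log2 ratio was 0.50. The matrix genes used to set spots aside were also still higher in sum, by a ratio of 1.17. With the top 20% of spots by matrix share set aside, the pan-myeloid median was 0.39. Laptm5, a lysosomal membrane protein of haematopoietic cells, had 26 UMIs in class II spots (67.2 CPM) and 82 in the other remaining spots (23.6 CPM), a ratio of 2.85 (1.76 to 4.48). The 26 Laptm5 UMIs were spread over 21 class II spots, with at most 3 in a spot. Coro1a, an actin regulator of leukocytes, had 15 UMIs in class II spots (38.8 CPM) and 38 in the others (10.9 CPM), a ratio of 3.55 (1.81 to 6.61). Both calls were kept under 16 of 18 other settings. Ranking by Cd74 alone ended both, with log2 ratios of 0.33 for Laptm5 and 0.86 for Coro1a, and each was lost under 1 further setting (0.92 for Laptm5 in the top 20% of spots by class II share, 1.13 for Coro1a with the top 20% by matrix share set aside). Lyz2, the lysozyme of macrophages and neutrophils, was at 346 CPM in class II spots and 262 CPM in the others, a ratio of 1.32 (1.09 to 1.59) that is below the size required. Fcer1g, the shared Fc receptor chain, had a ratio of 1.80 (1.10 to 2.83), also below it.

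Resident macrophage genes gave a mixed picture. The list of 25 had a summed ratio of 1.18 (1.10 to 1.27). Of 20 with enough UMIs 2 were higher and 0 lower, against the 1.29% and 1.01% of all genes. Of these 20, 13 had a ratio above 1, and the median log2 ratio was 0.13. Mertk, the receptor by which macrophages take up dying cells, had 12 UMIs in class II spots (31.0 CPM) and 18 in the other remaining spots (5.17 CPM), a ratio of 6.0 (2.63 to 13.2). In the spots with 3 or more class II UMIs its log2 ratio was 1.18 and the call was lost. Cx3cr1, the fractalkine receptor of monocytes and some resident macrophages, had 10 UMIs in class II spots (25.8 CPM) and 33 in the others (9.48 CPM), a ratio of 2.73 (1.20 to 5.66), and kept its call under 10 of 18 other settings. With ranking by Cd74 alone its log2 ratio was -0.33. More abundant macrophage genes differed less. Csf1r, the receptor for macrophage colony-stimulating factor, had a ratio of 1.53 (0.976 to 2.31) and Pf4, a platelet chemokine also made by tissue macrophages, of 1.89 (1.25 to 2.79). The complement genes C1qa, C1qb and C1qc, made by most tissue macrophages, had ratios of 0.927, 1.15 and 1.07, each with an interval that included 1. Lyve1 and Folr2, known for heart macrophages with little class II, had ratios of 0.964 (0.339 to 2.23) and 0.580 (0.067 to 2.28), with 6 and 2 UMIs in class II spots.

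**Figure D2:**
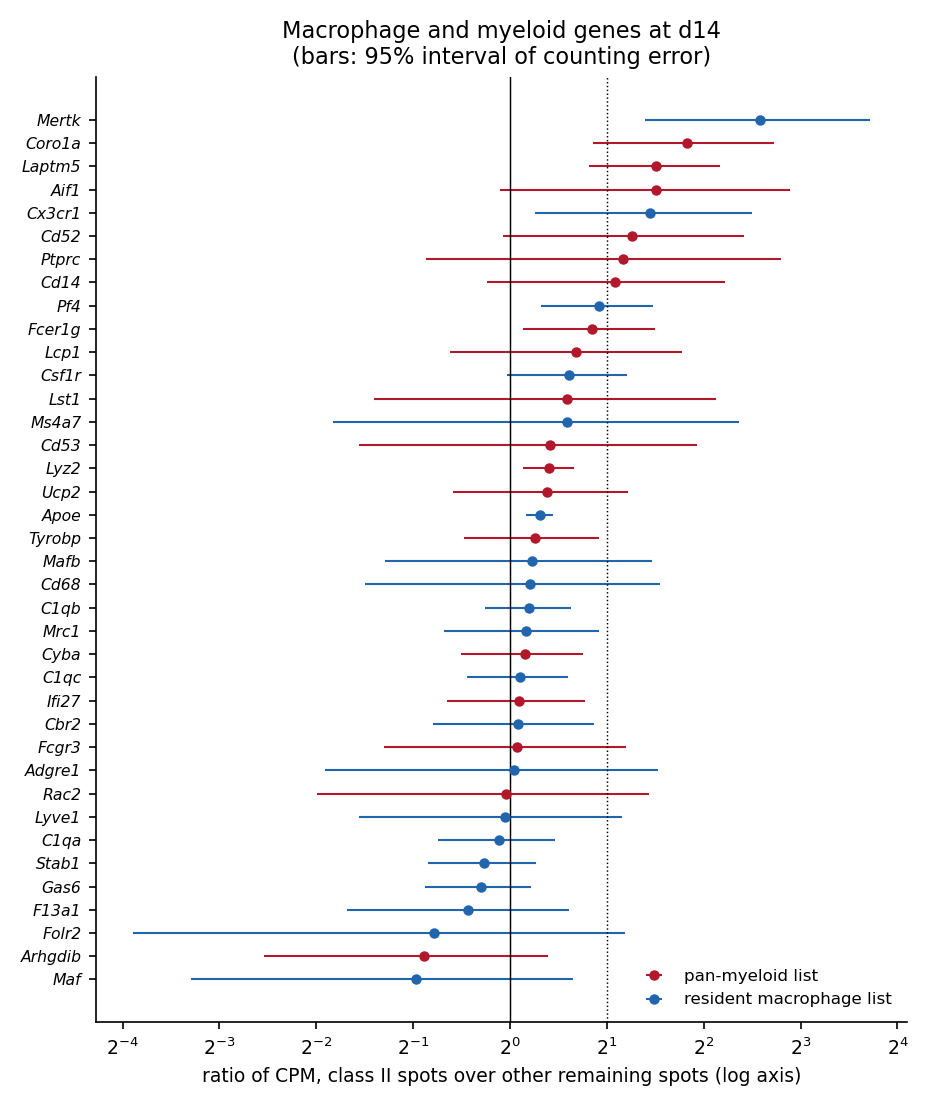
Ratio of CPM in d14 class II spots over the other remaining spots (log axis) for each pan-myeloid gene (red) and resident macrophage gene (blue) with at least 20 UMIs. Bars are exact 95% intervals of counting error, the solid line marks a ratio of 1 and the dotted line a ratio of 2. Mertk at 6.0, Coro1a at 3.55, Laptm5 at 2.85 and Cx3cr1 at 2.73 pass the rule.

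Many single markers of the specialised antigen-presenting cells and lymphocytes were close to the limit of detection. The 23 dendritic cell genes summed to 1931 CPM in class II spots and 1625 CPM in the others. The ratio of these sums was 1.19 (1.10 to 1.28). Of the 747 UMIs of this list in class II spots, 37 and 35 lay in the 2 spots with the most Tagln UMIs. The median over class II spots was 5.5, and the ratio without those 2 spots was not computed. Of the 11 genes with enough UMIs, 10 had a ratio above 1, and the median log2 ratio was 0.39. Of these 11, 1 was higher and 0 lower, against the 1.29% and 1.01% of all genes. The gene called, Naaa, a lysosomal acid amidase, had 11 UMIs in class II spots and 42 in the others, a ratio of 2.36 (1.09 to 4.66), and a log2 ratio of -0.31 when spots were ranked without Cd74. Itgax, which encodes CD11c, had 2 UMIs in class II spots and 2 in the others. Cd209d and Cd209a, C-type lectins, had 4 and 3 UMIs in class II spots and 1 and 2 in the others, all under the minimum. A UMI is worth 2.58 CPM in class II spots and 0.287 CPM in the others. The counts of Itgax, Cd209d and Cd209a thus lean to the class II spots but are too few to call. The 21 T and NK cell genes summed to 17 UMIs in class II spots and 186 in the others, a ratio of 0.822 (0.469 to 1.35), and 13 of them had 0 UMIs in class II spots. Cd3e, Cd4 and Cd8a were among those at 0, which allows up to 7.75 CPM each. The 18 B cell genes summed to 17 and 122 UMIs, a ratio of 1.25 (0.707 to 2.09), with 11 at 0 in class II spots and Ms4a1 among them.

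For single genes that act with class II molecules the counts were too low to show more than a large difference. The 14 genes for loading peptides and controlling class II transcription summed to 85 UMIs in class II spots and 855 in the others. The ratio of summed CPM was 0.894 (0.707 to 1.12), which does not exclude 1. Of the 14, 6 had enough UMIs and 0 were higher or lower, against the 1.29% and 1.01% of all genes. Of these 6, 1 had a ratio above 1, and the median log2 ratio was -0.27. With the matrix-rich spots kept among the spots ranked, that median was 0.37. Ciita, the master coactivator, had 0 UMIs in class II spots and 1 in the others. H2-DMa, a chain of the peptide loader, had 2 UMIs in class II spots and 20 in the others, and H2-DMb1, the other chain, had 3 and 11. Ctss, the cathepsin that trims Cd74 in antigen-presenting cells, was at 31.0 CPM in class II spots and 24.7 CPM in the others, a ratio of 1.25 (0.624 to 2.31). Ifi30, a thiol reductase of antigen processing, had a ratio of 0.656 (0.308 to 1.24).

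MHC class I genes and most interferon-responsive genes did not reach the required size. Of 17 class I and antigen-processing genes with enough UMIs 0 were higher or lower, against the 1.29% and 1.01% of all genes. Their median log2 ratio was 0.11, and the 18 genes of the list had a summed ratio of 1.12 (1.04 to 1.19). B2m, the light chain of class I, was at 688 CPM in class II spots and 574 CPM in the other remaining spots, a ratio of 1.20 (1.05 to 1.36). H2-D1 had a ratio of 1.15 (1.02 to 1.29) and H2-K1, the other classical heavy chain, of 1.10 (0.914 to 1.31). For all 3 genes the upper bound lies below the required ratio of 2. The 30 interferon-responsive genes had a summed ratio of 1.20 (1.05 to 1.36). Of their 276 UMIs in class II spots, 14 and 12 lay in the 2 class II spots with the most Tagln UMIs. Over class II spots the median was 2 and the maximum 17, and the ratio without those spots was not computed. The 20 with enough UMIs had a median log2 ratio of 0.33. Of these, 0 were lower and 1 was higher. This was Irgm1, an interferon-induced GTPase, with 10 UMIs in class II spots and 32 in the others, a ratio of 2.81 (1.23 to 5.86), and a log2 ratio of -0.29 with ranking by Cd74 alone. Iigp1, another such GTPase, had a ratio of 1.26 (0.437 to 2.96), and Psmb8, an immunoproteasome subunit, of 1.02 (0.493 to 1.91).

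Among genes of other tissue cells, none of the 24 cardiomyocyte, 21 fibroblast or 19 blood endothelial genes passed the rule in either direction. Of all genes 1.29% were higher and 1.01% lower. The median log2 ratios were -0.03, 0.04 and 0.07 in the same order. Some sums nevertheless differed beyond counting error. The cardiomyocyte genes had a summed ratio of 0.978 (0.970 to 0.986) and the fibroblast genes of 1.06 (1.02 to 1.10). Even after the removal of matrix-rich spots, the 6 matrix genes used for it summed to 3670 CPM in class II spots and 3147 CPM in the others, a ratio of 1.17 (1.10 to 1.23) with 6 of 6 above 1. Stressed cardiomyocyte genes had a summed ratio of 1.19 (1.13 to 1.25), but only 4 of 9 had a ratio above 1. Their median log2 ratio was -0.12. Venous and endocardial genes had a summed ratio of 1.19 (1.07 to 1.33). For adipocyte genes it was 1.58 (1.01 to 2.38), from 27 UMIs in class II spots, and 1 of 9 genes had enough UMIs. The part of these cells in the myeloid ratios was not tested. Of 15 genes of mural cells, the smooth muscle cells and pericytes of vessels, 2 were higher and 1 lower. Tagln (transgelin), a smooth muscle protein, was first among the higher genes, with 71 UMIs in class II spots (183.5 CPM) and 207 in the other remaining spots (59.5 CPM), a ratio of 3.08 (2.32 to 4.06). Myh11, the smooth muscle myosin heavy chain, had 40 UMIs in class II spots and 160 in the others, a ratio of 2.25 (1.55 to 3.20). However, 2 of the 106 class II spots held 40 of the 71 Tagln UMIs (56.3%) and 26 of the 40 Myh11 UMIs (65.0%). These 2 spots had 12 and 9 class II UMIs, all of H2-Aa and H2-Ab1 and none of Cd74, and cardiomyocyte genes made up 10.1% and 5.05% of their UMIs against a median of 14.8% over class II spots. Without them Tagln had a ratio of 1.39 (0.920 to 2.03), Myh11 of 0.812 (0.434 to 1.40) and Acta2, smooth muscle actin, of 0.972 (0.835 to 1.13). Laptm5 stayed at 2.72 (1.65 to 4.32) and Coro1a at 3.17 (1.55 to 6.09). The lower mural gene was Vtn, which encodes vitronectin, with 9 UMIs in class II spots and 185 in the others, a ratio of 0.438 (0.197 to 0.849).

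**Figure D3:**
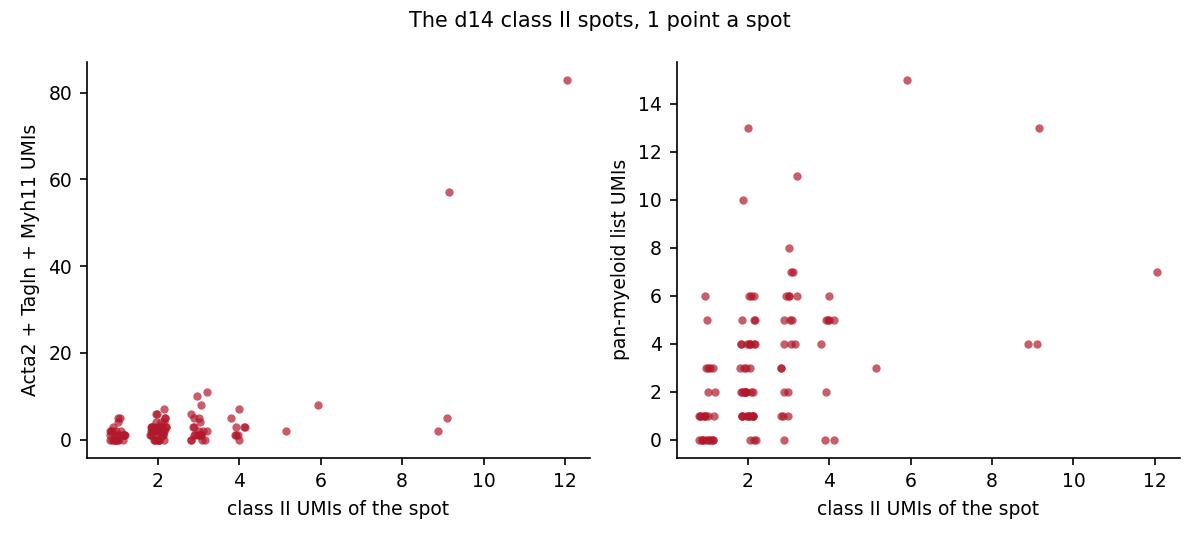
The 106 d14 class II spots, each a point, by class II UMIs (x axis, spread within each whole number) and by UMIs of Acta2, Tagln and Myh11 together (left) or of the pan-myeloid list (right). On the left 2 spots, with 12 and 9 class II UMIs, stand far above the rest, and on the right no such pair does.

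Among called genes with at least 50 CPM in either group, predicted and ribosomal protein genes left out, the leading higher genes reported here were Tagln, Laptm5, Slc38a1, Rpp14, Pmvk, Zfp24, Ric8a, Myh11, Arfgef2, Id2, Vasn, Dgat1, Arap1 and Senp6. Apart from Tagln and Laptm5, these had 20 to 40 UMIs in class II spots and ratios of 2.10 to 2.62. Slc38a1, a glutamine transporter, was highest of these, with 59.4 CPM in class II spots and 22.7 CPM in the others. The lower genes were Malat1, Keap1, Vtn, Micu2, Sept4, Tmem135, Mrpl43, Arl2, Asb10 and Kdelr1. Malat1, a nuclear long noncoding RNA, had 38.8 CPM in class II spots and 93.7 CPM in the others, a ratio of 0.414 (0.229 to 0.693). Senescence and growth-arrest genes gave 0 calls among 11, where 1.29% of all genes were higher and 1.01% lower. Cdkn1a, the p21 inhibitor, had a ratio of 1.14 (0.800 to 1.59). Egr1, an immediate early transcription factor, had 3 UMIs in class II spots and 33 in the others, a ratio of 0.818 (0.160 to 2.61).

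The matrix-rich spots that the rule set aside were the richer in macrophage RNA in sum, though not for every gene. H2-Aa, by which the class II spots were chosen, was at 268.8 CPM in them and 132.6 CPM in matrix-rich spots. Lyz2 was at 346 CPM in class II spots and 1104 CPM in matrix-rich spots, a ratio of 0.314 (0.257 to 0.381). C1qa was at 69.8 CPM in class II spots and 166.9 CPM in matrix-rich spots, Ctss at 31.0 and 107.4 CPM, and Cd68, a macrophage lysosomal protein, at 12.9 and 66.3 CPM, all called lower. Of 6089 genes tested in this comparison 2.32% were higher and 11.1% lower in class II spots. Of 13 pan-myeloid genes 0 were higher and 6 lower, and of 14 resident macrophage genes 0 were higher and 9 lower. Laptm5 did not differ by the rule, at 67.2 CPM in class II spots and 84.6 CPM in matrix-rich spots. Of the 118 matrix-rich spots, 55.1% held at least 1 class II UMI, and they held 23.8% of the class II UMIs of the section.

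The same rule applied to the d7 section gave 70 of 697 remaining spots and a different picture. The class II spots held 264 class II UMIs at d14, with a median of 2 and a maximum of 12, and 219 at d7, with a median of 1 and a maximum of 35. At d7, where 1.47% of 10872 genes were higher and 1.09% lower, 16 of 18 class I and processing genes were higher. The median log2 ratio of that list was 0.11 at d14 and 2.20 at d7. Of the interferon-responsive genes 1 of 20 was higher at d14 and 17 of 23 at d7, with median log2 ratios of 0.33 at d14 and 1.85 at d7. H2-K1 had a ratio of 1.10 at d14 and 5.07 (4.55 to 5.64) at d7, and Psmb8 of 1.02 at d14 and 8.51 (6.12 to 11.9) at d7. Iigp1 had a ratio of 1.26 at d14 and 10.4 (7.53 to 14.3) at d7. The intervals at the 2 times do not overlap for these 3 genes, but each time is a single heart, so age, time after injury and the individual section cannot be told apart. The T and NK cell list also differed, with a summed ratio of 0.822 (0.469 to 1.35) at d14 and 4.32 (3.35 to 5.55) at d7. Its chemokine Ccl5 had 36 UMIs in d7 class II spots and 5 in the other remaining d7 spots. At d14 Ccl5 had 2 and 5, out of 386897 and 3479705 UMIs, too few to show whether it differed there. Class II spots were deeper at d7 (median 10008.5 UMIs, against 7991 in the other remaining d7 spots), and the part of depth in these values was not tested.

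**Figure D4:**
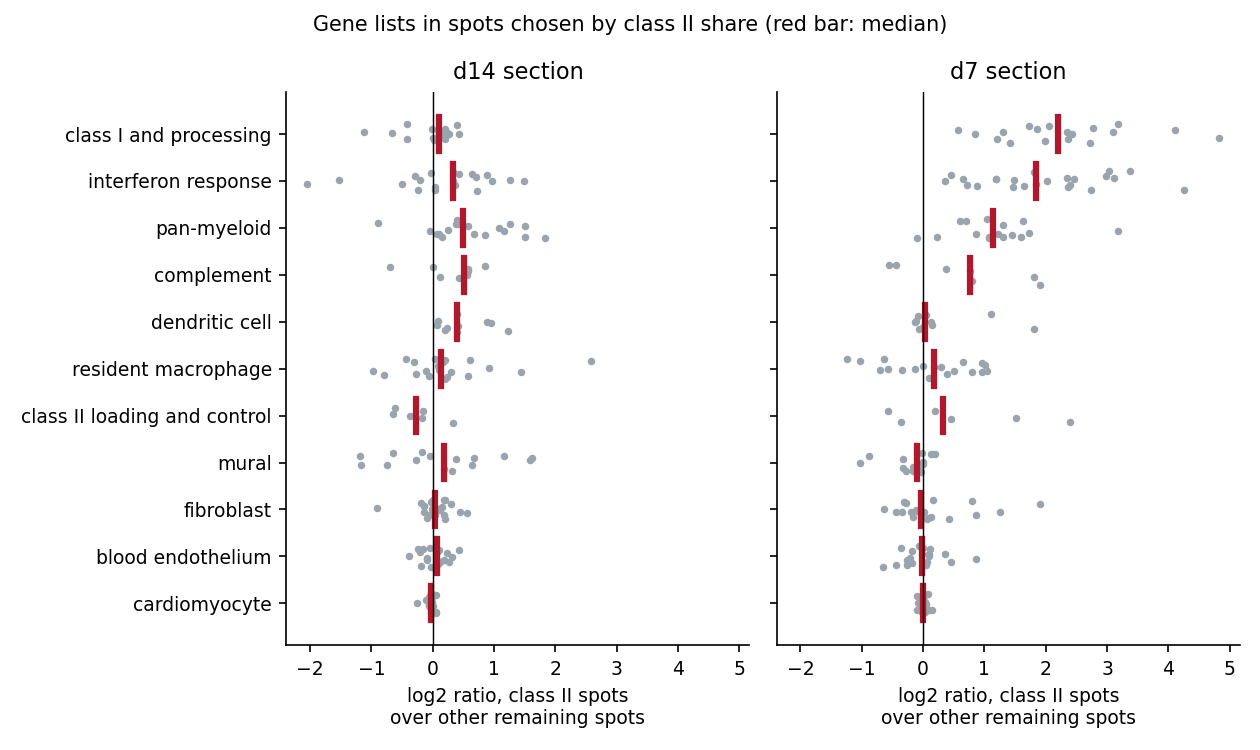
Log2 ratio of CPM in class II spots over the other remaining spots for each gene (grey) of 11 lists with UMIs in both groups of spots, with the list's median in red, in the d14 section (left) and the d7 section (right). The class I median is 0.11 at d14 and 2.20 at d7, and cardiomyocyte genes stand near 0 in both.

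The genes called at d14 were read in the d7 section, which shares no spot with it. Of the 131 higher genes 122 had enough UMIs at d7, and 5 were higher there too, which is 3.82% of the d14 list and 3.12% of the d7 list. Of all genes at d7, 1.47% were higher. These were Laptm5, Coro1a, Irgm1, Gm49980 and Mpeg1, named here after their values were seen. Mpeg1, perforin-2 of macrophages, had 12 UMIs in d14 class II spots and 24 in the other remaining d14 spots, a ratio of 4.50 (2.05 to 9.35). Of the 122 genes, 41.0% had a ratio above 1 at d7, against 44.4% of all genes with enough UMIs in both sections. In the other direction, of 160 genes higher at d7, 125 had enough UMIs at d14 and 59.2% of these had a ratio above 1 there, with a median log2 ratio of 0.21, against 48.6% of all genes at d14. Of the 103 lower genes 2, Sh3d21 and Brix1, were lower at d7 as well, 1.98% of the 101 with enough UMIs against 1.09% of all genes at d7. In the d1 and d4 sections the rule could not single out such spots, since 31 of 40 chosen spots at d1 and 28 of 60 at d4 held 0 class II UMIs.

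Levels were also read over all remaining spots by the number of class II UMIs. At d14 the pan-myeloid list was at 607 CPM in spots with 0 class II UMIs, 635 with 1, 897 with 2 and 969 with 3 or more, so the higher levels began at 2 UMIs. At d7 it was at 376, 465, 820 and 1470 CPM in the same order. The class I list was at 2299, 2389, 2347 and 2802 CPM at d14 and at 1334, 2583, 4664 and 10123 CPM at d7. At d14 only the level at 3 or more UMIs (2563 to 3057 CPM) lay above the intervals of the others. Of the 506 class I UMIs behind that level, 29 and 32 lay in the 2 spots richest in smooth muscle RNA. Whether the level stays above the others without these 2 spots was not tested. Spots with more class II UMIs were also deeper at d14, with median depths of 3656, 3946, 4283 and 5639 UMIs. The part of depth in the pan-myeloid levels was not tested by this split. Standardised over 5 depth classes, the median log2 ratio of the list between class II and other remaining spots was 0.59.

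**Figure D5:**
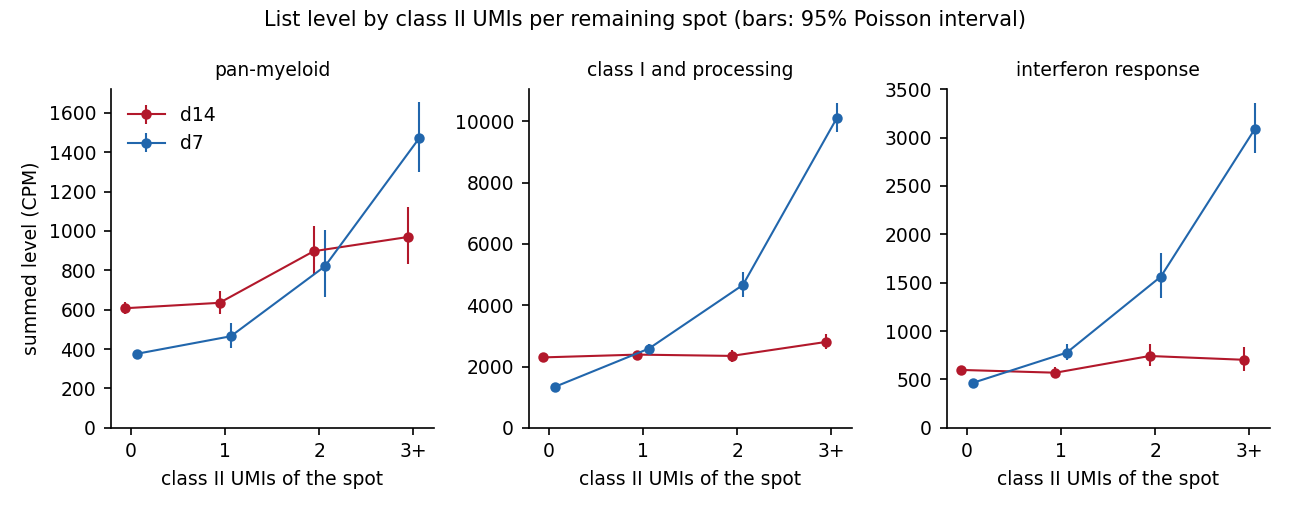
Summed level (CPM, y axis from 0) of the pan-myeloid, class I and interferon response lists in remaining spots with 0, 1, 2 and 3 or more class II UMIs, in the d14 section (red) and the d7 section (blue). Bars are exact Poisson 95% intervals. Class I reaches 10123 CPM at d7 and 2802 CPM at d14 in spots with 3 or more class II UMIs.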

How the data were processed

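The authors deposited a matrix of unnormalised UMI counts for each section. Per the file headers it came from Space Ranger 1.3.0. Per the submitters' processing notes the build was mm10, and Seurat 4.1.1 is named there with no role. The sources used here do not say how the listed spots were picked. Images and positions of spots were left aside, and no doublet caller was run on spots. Gene coordinates were taken by Ensembl ID from GENCODE vM21 (32235 of 32285 features matched), and 38 symbols shared by several IDs were kept apart.

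Counts were pooled over spots and divided by the total without 8 haemoglobin genes, 13 mitochondrially encoded genes and the 4 selecting genes (386897 UMIs in class II spots, 3479705 in the others). Ratios carry an exact conditional binomial (Clopper-Pearson) 95% interval and levels an exact Poisson interval. A count of 0 was read as up to 3 UMIs. In list medians, genes with 0 UMIs in class II spots ranked lowest. A sum over spots of a single section has no replicate, so edgeR was used only for TMM factors (edgeR 4.0.16). The other software was Python 3.11.15, numpy 2.4.6, scipy 1.17.1 and pandas 2.3.3. Of the d14 barcodes, 333, 550 and 754 also occurred at d1, d4 and d7, as array positions share them.

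The spots, gene lists and rules were chosen with earlier results of these data known. Named genes were the 15 highest and 10 lowest by ratio among called genes with at least 50 CPM in either group (without predicted, ribosomal protein, haemoglobin, mitochondrially encoded and sex-linked transcripts), the called genes of the lists, up to 4 genes of each list with the most UMIs, Egr1, Cdkn1a and the selecting genes. A few genes that this rule would name are not reported here. Further list genes were named for their known role after their values were seen. Alternatives changed 1 choice at a time (spot and gene minimum, removal and ranking of spots, scaling, depth classes, size of ratio).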

Additional observations from a re-analysis of the deposited data

Results flagged for a closer look

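Uba7, which encodes the E1 enzyme for the interferon-induced modifier Isg15, was called lower in the d14 class II spots, with a log2 ratio of -1.62 (3 UMIs in class II spots, 83 in the other remaining spots), and higher in the d7 class II spots, with 1.51. These calls in opposite directions at d14 and d7 rest on few UMIs, and the difference was not tested.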

How the results depend on the processing

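No paired analysis was possible because each time point had 1 section. The count of genes higher in class II spots, 131 (103 lower), became 289 (93 lower) without removal of matrix-rich spots, 197 (86 lower) with the top 5% of spots by class II share, 212 (75 lower) when standardised over 5 depth classes (with an approximate interval), 74 (90 lower) with genes of 50 or more UMIs and 234 (136 lower) at 1.5-fold. With 3 or more class II UMIs per spot it was 184 (92 lower), and with ranking by Cd74 alone 107 (126 lower). Keeping the matrix-rich spots also moved the median log2 ratios of the lists, to 1.40 for pan-myeloid, 0.70 for resident macrophage, 1.02 for complement, 0.37 for class II loading, 0.38 for class I, 0.43 for lysosome, 0.55 for fibroblast, 0.64 for other matrix and -0.20 for cardiomyocyte genes. Removing the top 20% by matrix share gave -0.69 for class II loading. With the top 20% by class II share class I was at -0.029, and with class II spots of 3 or more class II UMIs at 0.27. Ranking by Cd74 alone gave -0.017 for class I, -0.024 for other matrix, -0.025 for complement and 0.0019 for cardiomyocyte genes, the last against -0.03. It also turned Cx3cr1 to -0.33, Irgm1 to -0.29, Senp6 to -0.36 and Kdelr1 to 0.0021 (log2 ratios). Cardiomyocyte genes were at -0.053 with the top 5% of spots, -0.10 with TMM scaling and -0.0046 without the 2 spots richest in smooth muscle RNA, an alternative chosen after seeing the data that also turned Myh11 to -0.30. TMM scaling put lysosome genes at -0.075, and equal weight for each spot put resident macrophage genes at -0.13. Naaa was at -0.31 when ranked without Cd74, and Dgat1 at -1.46 with 3 or more UMIs. The cause of these shifts was not tested. Few UMIs per gene in class II spots limit all calls of genes with low levels.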
